A study of Mus musculus with 4 samples.

Results

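Genes of the cytoplasmic ribosomal proteins were compared between cultured mouse blastocysts that were wild-type or Tip110-/-, using RNA of the outgrowths they formed. A gene was a member when its array row carried exactly 1 distinct gene symbol in the platform annotation and that symbol had the form of a large-subunit (Rpl) or small-subunit (Rps) protein name. Of several such rows for a gene, the one with the highest mean signal was used. This gave 38 members among 30142 genes, 23 of the large and 15 of the small subunit. Both groups came from intercrosses of Tip110+/- mice. Blastocysts were flushed at 3.5 days post coitum and grown one by one for 4 to 6 days in stem cell medium with knockout serum replacement, with no treatment. The genotypes were read from cDNA of the same RNA, and the kind of Tip110 allele is not given in the sources used here. Each genotype had 2 arrays, replicate 1 from RNA pooled over 3 outgrowths and replicate 2 from 1 outgrowth alone. An outgrowth is a mixed culture of trophoblast and of cells from the inner cell mass. The labels call the arrays biological replicates without naming litters, so p-values reach no further than these samples. They rest on the spread between replicates together with a variance that limma estimates over all genes by signal level.

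The cytoplasmic ribosome makes all proteins encoded in the nucleus. Its small subunit reads the mRNA, and its large subunit joins amino acids and passes the new chain out through an exit tunnel. Vertebrate ribosomal protein mRNAs typically begin with a C followed by a run of pyrimidines, the 5′ terminal oligopyrimidine tract, through which mTOR and LARP1 control their translation together. A few ribosomal proteins also have paralogs, second genes whose use is restricted to certain tissues such as testis or striated muscle. Tip110 is the product of Sart3, and it helps the U4 and U6 small nuclear RNAs to pair again after each round of splicing.

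Values are the deposited log2 signals, in which a step of 1 is a 2-fold change if the log base, inferred from the range of the values, is right. The median over all genes was 4.21 and 4.22 for wild-type and 4.45 and 4.32 for Tip110-/-, and the 23 background probe rows had medians of 2.83, 2.82, 3.05 and 2.94 in the same order. Sart3 was at 4.94 and 5.98 against 4.28 and 4.54, with both Tip110-/- values lower and a mean difference of -1.05 ± 0.39 (SE) and a limma adjusted p of 0.386. RNA collected per outgrowth was 248.7 and 178 pg in wild-type and 55 and 144 pg in Tip110-/-. Amount of RNA and genotype therefore cannot be told apart, and in bulk RNA fewer cells of a type and less RNA per cell cannot be told apart either. All differences below are Tip110-/- minus wild-type, with n = 2 arrays per genotype.

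The comparison of genotypes asks whether the supply of ribosomal protein mRNA changed when Tip110 was lost. In 34 of 38 members the genotypes differed by less than 0.5 on the log2 scale (89.5%, against 75.3% of all genes and 56.8% of genes with a mean of at least 10). Rpl10l and Rpl39l, a pair of paralogs associated with the male germline, had lower values in both Tip110-/- arrays. Of the 38 members, 0 passed a limma adjusted p of 0.05, where 0% of all genes did, and their adjusted p ranged from 0.339 to 0.993. At an unadjusted p under 0.05, 2 of 38 members were lower and 0 were higher, where 3.67% of all genes were lower and 8.99% higher. That split depends on scaling: it was 1106 lower and 2711 higher genes as deposited, and 1825 and 911 with each array centred on its gene median, where the same count of 2 large-subunit members was lower. Among the 2405 genes with a mean of at least 10, the corresponding shares were 7.28% and 2.33%. The 2 members were 5.26% of the list, close to these backgrounds, and the count is not a result about the list as a whole. Both belong to the large subunit.

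Rpl39l encodes a paralog of the exit tunnel protein Rpl39 that in mouse is used in spermatogenesis. Wild-type outgrowths gave signals of 14.68 and 14.58, and Tip110-/- outgrowths 13.18 and 13.45. The groups did not overlap, and both gaps between replicates were small beside the gap between genotypes. The difference was -1.32 ± 0.33 (SE), 2.49-fold lower, with a limma unadjusted p of 0.0109 and an adjusted p of 0.339. It stayed between -1.46 and -1.18 when each array was left out, with an unadjusted p under 0.05 each time. Rpl39 itself, from the X chromosome, was at 11.59 and 11.31 in wild-type outgrowths against 11.24 and 11.11 in Tip110-/- outgrowths. These values did not overlap either, but the difference was only -0.28 ± 0.48 (SE), and its 95% interval ran from -1.52 to 0.96. The replicate SDs of Rpl39 were 0.20 and 0.09, so limma's variance for genes at that level set much of the width. Within each array, the gap between the paralog and Rpl39 was smaller whenever Tip110 was missing, and its mean changed by -1.04. That change was not tested.

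Rpl10l is an intronless copy of the X-linked gene Rpl10, required in male meiosis in mouse, whose protein sits near the peptidyl transferase centre. Wild-type outgrowths gave 12.60 and 11.10, and Tip110-/- outgrowths 9.59 and 10.03. The groups did not overlap, but the wild-type arrays lay further apart than the lower of them lay above Tip110-/-. The difference was -2.04 ± 0.70 (SE), 4.12-fold lower, with a limma unadjusted p of 0.0322 and an adjusted p of 0.371. This rests on each of 3 arrays: leaving out the pooled wild-type array gave -1.29 with an unadjusted limma p of 0.138. Leaving out the pooled Tip110-/- array gave -1.82 and 0.121, and leaving out the single Tip110-/- outgrowth -2.27 and 0.0734. Rpl10 had no row of its own. Its 2 rows shared with other symbols differed by 0.03 and 0.73, at 18.28 and 18.35 against 18.16 and 18.53 in one, and at 12.40 and 12.47 against 12.71 and 13.64 in the other.

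**Figure D1:**
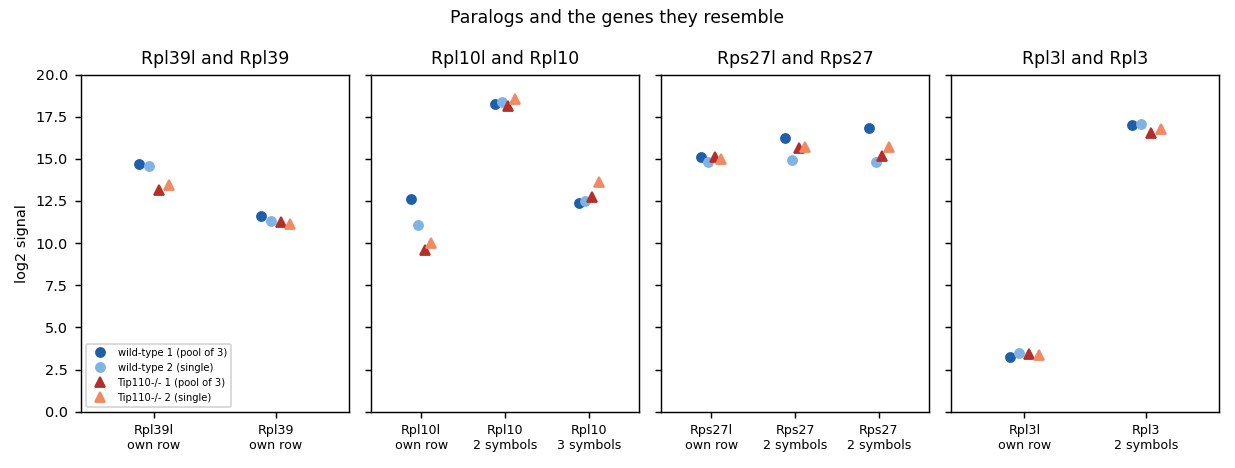
Log2 signal (vertical axis) of 4 paralogs and of the genes they resemble, 1 point per array, with wild-type as circles and Tip110-/- as triangles; the label under each column says whether the row carries the symbol alone or how many symbols share it. Rpl39l and Rpl10l are lower in both Tip110-/- arrays, Rps27l lies between 14.79 and 15.11 in all 4, and Rpl3l stays under 3.5; levels of different rows rest on different probes and are not compared.

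Of the other paralogs, none passed an unadjusted p of 0.05 in limma. Rps27l, a paralog of Rps27 that p53 is known to induce, was at 15.10 and 14.79 in wild-type outgrowths against 15.11 and 14.97 in Tip110-/- outgrowths, a difference of 0.09 ± 0.28 (SE). Rpl3l, the striated muscle paralog of Rpl3, was near the background rows in every array, from 3.23 to 3.47. Rpl32l and Rpl6l, which carry the names of copies of Rpl32 and Rpl6, differed by -0.11 ± 0.46 (SE) and -0.03 ± 0.51 (SE), and the gene table lists Rpl6l as a pseudogene. Outside the member rule, Rpl22l1 differed by -0.08 and Rpl7l1 by -2.62, the latter from 10.60 and 12.04 to 7.02 and 10.39 (limma adjusted p = 0.416). The Rpl7l1 groups did not overlap, but the Tip110-/- arrays lay further apart than the group means.

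Markers of the epiblast moved with Rpl39l and Rpl10l. Of 12 epiblast markers, 11 had both Tip110-/- values below both wild-type values. The sum of their linear signals, as log2, was 18.70 and 18.87 in wild-type outgrowths against 17.09 and 15.40 in Tip110-/- outgrowths. Dppa5a alone was at 18.61 and 18.70 against 17.06 and 15.35, so this 1 gene makes up most of the sum. Fgf4, the lowest, reached 3.64, close to the background rows. The 7 measured trophoblast giant cell markers summed to 18.63 and 18.00 in wild-type outgrowths against 18.51 and 19.42 in Tip110-/- outgrowths, with 4 higher in both and 0 lower in both. Over all genes, 12.9% were lower and 39.9% higher without overlap. At an unadjusted p under 0.05 in limma, 9 of 12 epiblast markers were lower and 0 of 7 giant cell markers passed. Over all genes, 3.67% were lower and 8.99% higher at that threshold. The 7 measured primitive endoderm markers summed to 8.91 and 7.42 against 7.95 and 8.54, and 4 of them had a mean under 5. Lama1 was the highest of the 7 in every array, at 8.20 and 5.97 against 6.10 and 7.64. Between the Tip110-/- arrays the order differed: the epiblast sum, mostly Dppa5a, was lower in the single outgrowth, while both paralogs were lower in the pool. Of the 12 epiblast markers, 4 were lower in the pool. The part of cell composition in the paralog values was not tested.

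Promoter sequence is shown for both paralogs and their X-linked relatives, since these members had the largest differences. Each stretch runs 5′ to 3′ on the gene's strand, from 60 bases before a RefSeq transcript start to 30 bases after it, in build GRCm38.p6. Capitals mark CTTTC or CTTCC, short pyrimidine runs of the kind found in terminal oligopyrimidine tracts, searched on the gene's strand from 20 bases before to 30 after the start, and CCGGAAG, the core of ETS-family sites, searched on both strands. CTTCC overlaps the reverse of CCGGAAG, which reads CTTCCGG.
Rpl39l, chr16:10170168-10170257, plus strand: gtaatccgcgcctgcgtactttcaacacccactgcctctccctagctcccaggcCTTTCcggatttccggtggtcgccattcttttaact
Rpl39, chrX:37085193-37085282, minus strand: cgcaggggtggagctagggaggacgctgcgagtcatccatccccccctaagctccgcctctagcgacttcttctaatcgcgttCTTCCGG
Rpl10l, chr12:66284372-66284461, minus strand: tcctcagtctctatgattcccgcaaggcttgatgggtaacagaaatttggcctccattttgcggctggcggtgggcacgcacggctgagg
Rpl10, chrX:74270756-74270845, plus strand: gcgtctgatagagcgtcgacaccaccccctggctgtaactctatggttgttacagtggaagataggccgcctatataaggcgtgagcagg

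In this window Rpl39l held CTTTC just before the annotated start and Rpl39 held CTTCC after it. Rpl10l and Rpl10 held neither of these, nor CCGGAAG in the 300 bases searched, where Rpl39l held it 2 times and Rpl39 1 time. The search only says which letters are there, and draws nothing about factor binding or translation.

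For comparison, 4 members with differences between -0.27 and 0.39 are shown, chosen for pyrimidine runs at or beside the annotated start.
Rpl35, chr2:39005102-39005191, minus strand: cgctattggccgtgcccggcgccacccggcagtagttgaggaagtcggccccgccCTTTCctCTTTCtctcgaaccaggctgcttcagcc
Rpl38, chr11:114668520-114668609, plus strand: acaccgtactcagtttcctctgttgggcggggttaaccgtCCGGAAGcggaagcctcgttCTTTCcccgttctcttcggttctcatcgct
Rps10, chr17:27635215-27635304, minus strand: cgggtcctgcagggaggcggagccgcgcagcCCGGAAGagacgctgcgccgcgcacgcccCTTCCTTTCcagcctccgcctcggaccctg
Rps18, chr17:33955636-33955725, minus strand: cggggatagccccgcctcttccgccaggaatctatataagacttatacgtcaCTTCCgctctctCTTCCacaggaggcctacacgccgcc

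Of the 38 members, 32 had a promoter in the RefSeq table. CTTTC or CTTCC lay in the searched window of 20 of these 32 genes (62.5%), against 18.5% of the 27025 genes with a promoter in that table. CCGGAAG lay in the 300-base promoter of 15 of 32 (46.9%), against 9.93% of all. By subunit, the pyrimidine motifs were in 12 of 20 large-subunit and 8 of 12 small-subunit promoters. The annotated starts are transcript models and need not be the start used in these cells.

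Across the large subunit, 16 of 23 members were below 0 and 7 above. The median difference was -0.11, or -0.26 relative to the median of all genes, which was 0.15. Genes with a mean of at least 10 had a median of -0.20 on the same relative scale, so the subunit's median lay near that of other genes at high signal. In 7 of 23 members both Tip110-/- arrays were below both wild-type arrays, and in 0 both were above, where the shares over all genes were 12.9% and 39.9%, and those over genes with a mean of at least 10 were 26.9% and 14.2%. The members' share of 30.4% lower was near the latter. The median was 0.025 without Tip110-/- replicate 1, -0.26 without Tip110-/- replicate 2, -0.22 without wild-type replicate 2, -0.05 without wild-type replicate 1 and -0.034 after quantile normalization.

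**Figure D2:**
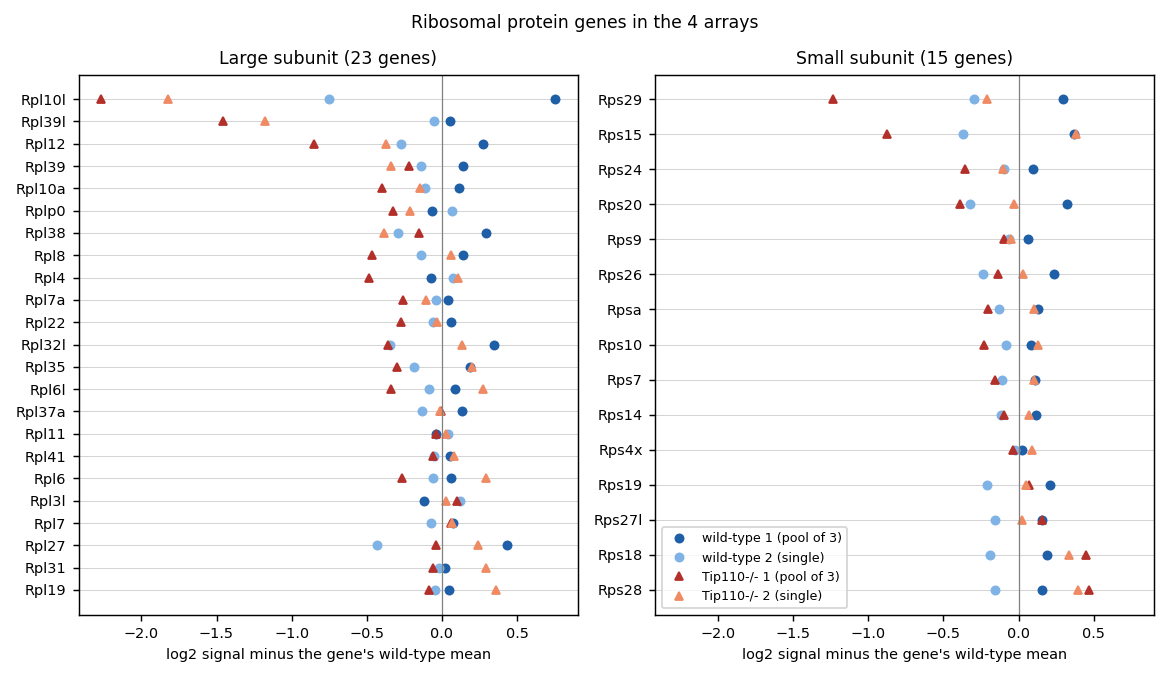
Log2 signal minus the gene's wild-type mean (horizontal axis) for each of the 38 members, 1 point per array, large subunit on the left and small subunit on the right, ordered by the difference between genotypes. Apart from Rpl10l, Rpl39l, Rpl12, Rps29 and Rps15, all points lie within 0.5 of the wild-type mean.

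The P stalk recruits the elongation factors to the ribosome. Rplp0, its base, was at 13.91 and 14.05 in wild-type outgrowths against 13.66 and 13.77 in Tip110-/- outgrowths, a difference of -0.27 ± 0.33 (SE) with no overlap. Rpl12, which sits beside it, was at 16.36 and 15.81 against 15.24 and 15.71, a difference of -0.61 ± 0.31 (SE) with a limma unadjusted p of 0.107. This was the most negative difference among large-subunit members other than the paralogs, and its unadjusted p was 0.0472 after cyclic loess. The Rpl12 row, however, is named for another chromosome than the gene, and 2 rows that share the symbol with others disagreed, at 0.22 and -0.62. The stalk proteins Rplp1 and Rplp2 had shared rows only, which differed by -0.33 and 0.01.

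Proteins of the peptide exit tunnel other than Rpl39 showed no common direction. Rpl4, which reaches into the tunnel, was at 16.92 and 17.06 in wild-type outgrowths against 16.51 and 17.10 in Tip110-/- outgrowths, a difference of -0.19 ± 0.25 (SE). Rpl35, at the tunnel mouth, differed by -0.05 ± 0.24 (SE), and its neighbours Rpl31 and Rpl19 by 0.12 ± 0.39 (SE) and 0.14 ± 0.38 (SE). The groups overlapped in all 4. Rpl8, close to the peptidyl transferase centre, was at 16.90 and 16.62 against 16.30 and 16.82, a difference of -0.20 ± 0.25 (SE). Rpl11, which with Rpl5 and the 5S ribosomal RNA forms a particle that can also bind Mdm2, was at 7.28 and 7.37 in wild-type outgrowths against 7.28 and 7.35 in Tip110-/- outgrowths. Its difference was -0.01 ± 0.40 (SE), and 2 shared rows of Rpl5 differed by 0.16 and 0.22.

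The remaining large-subunit members stayed within 0.28 of 0. Rpl10a differed by -0.27 ± 0.50 (SE) and Rpl38, whose loss alters patterning in mouse, by -0.27 ± 0.49 (SE). Rpl7a differed by -0.18 and Rpl22 by -0.15. Rpl37a was at 17.66 and 17.40 against 17.52 and 17.52, and Rpl41, the smallest ribosomal protein, at 19.00 and 18.89 against 18.88 and 19.02. These 2 rows had the narrowest intervals among large-subunit members above background, -0.41 to 0.39 for Rpl37a and -0.25 to 0.27 for Rpl41. On the other side of 0, Rpl6, Rpl7 and Rpl27 differed by 0.01, 0.06 and 0.10. Rpl27 was at 18.25 and 17.38 against 17.77 and 18.05, with overlapping groups. When the pooled wild-type array was left out, its limma p was 0.0467, unadjusted, in the direction of higher.

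In the small subunit, 0 of 15 members passed an unadjusted p of 0.05 in either direction in limma, where 3.67% of all genes were lower and 8.99% higher, and the count was also 0 among the 18 canonical large-subunit members. Of the 15, 10 were below 0 and 5 above. The difference between the subunits was not tested. The median difference was -0.05, or -0.20 relative to all genes. Its sign was not stable, at 0.08 after quantile normalization, 0.03 after cyclic loess, 0.10 without wild-type replicate 1 and 0.07 without Tip110-/- replicate 1. Both Tip110-/- arrays were below both wild-type arrays in 1 member, Rps24 (6.67%, against 12.9% of all genes), and above in 2, Rps18 and Rps28 (13.3%, against 39.9%). Among genes with a mean of at least 10, these shares were 26.9% lower and 14.2% higher.

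Rps29, a zinc-binding protein of the small subunit's head, was at 16.18 and 15.60 in wild-type outgrowths against 14.66 and 15.68 in Tip110-/- outgrowths. Its difference of -0.72 ± 0.44 (SE) was the most negative in the subunit and rested on the pooled Tip110-/- array, since the single outgrowth lay between the wild-type arrays. Without Tip110-/- replicate 2 the unadjusted p was 0.0364, and with all arrays it was 0.159. Rps15, which reaches toward the decoding site, was also lowest in that array, at 14.14 and 13.40 against 12.90 and 14.15, a difference of -0.24 ± 0.57 (SE). Rps20 and Rps24 differed by -0.21 ± 0.54 (SE) and -0.23 ± 0.45 (SE).

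Rps28, a platform protein near the mRNA exit, was at 8.65 and 8.34 in wild-type outgrowths against 8.97 and 8.89 in Tip110-/- outgrowths, a difference of 0.43 ± 0.49 (SE). Rps18, a protein of the head, was at 8.96 and 8.58 against 9.22 and 9.11, a difference of 0.39 ± 0.50 (SE). These were the largest positive differences among all 38 members, and neither passed (limma adjusted p = 0.653 and 0.690). The other platform members, Rps14 and Rps26, differed by -0.02 ± 0.47 (SE) and -0.05 ± 0.26 (SE), and Rps3a1, whose symbol the rule does not take, by 0.02. Rps4x, an X-linked protein that binds early to the precursor of the 18S ribosomal RNA, was at 16.50 and 16.45 against 16.44 and 16.56. Its interval, the narrowest in the small subunit, ran from -0.44 to 0.49. Rpsa, also known as the laminin receptor, Rps7, Rps9, Rps10 and Rps19 differed by -0.05, -0.03, -0.07, -0.05 and 0.06.

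Mutations in ribosomal protein genes cause Diamond-Blackfan anaemia in humans. Of 19 such genes listed, 11 were members: Rpl11, Rpl27, Rpl31, Rpl35, Rps7, Rps10, Rps19, Rps24, Rps26, Rps28 and Rps29. None of the 11 passed an unadjusted p of 0.05 in limma with all arrays, where 3.67% of all genes were lower and 8.99% higher. With 11 genes, that count is not a result about the list. Their differences ran from -0.72 to 0.43 around a median of -0.03.

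The intervals set the size of change these arrays could resolve under limma's intensity trend, which ties their width to signal level. Rps9, with replicate SDs of 0.09 and 0.03, had an SE of 0.50. Rps26, with SDs of 0.33 and 0.11, had an SE of 0.26. In 36 of 38 members the difference was smaller than 2-fold, a share of 94.7% against 89.9% of all genes and 80.1% of genes with a mean of at least 10. The 95% interval lay wholly within 2-fold in 13 of 38 members, 34.2% against 57.5% of all genes and 11.7% of genes with a mean of at least 10. The 13 were Rpl3l, Rpl4, Rpl7a, Rpl8, Rpl27, Rpl35, Rpl37a, Rpl41, Rps4x, Rps7, Rps26, Rps27l and Rpsa. Rpl3l lay near the background rows, so its narrow interval does not show a steady expressed gene. Apart from Rpl3l, each of the 13 had a mean of at least 14.4. A place outside the 13 therefore need not mean a wider spread between replicates. The rows used for Rpl7a, Rpl27, Rpl35 and Rpl41 are named for another chromosome than the gene. For members outside the 13, a change of 2-fold in at least 1 direction lies inside the interval. The median half-width of the members' intervals was 1.06.

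**Figure D3:**
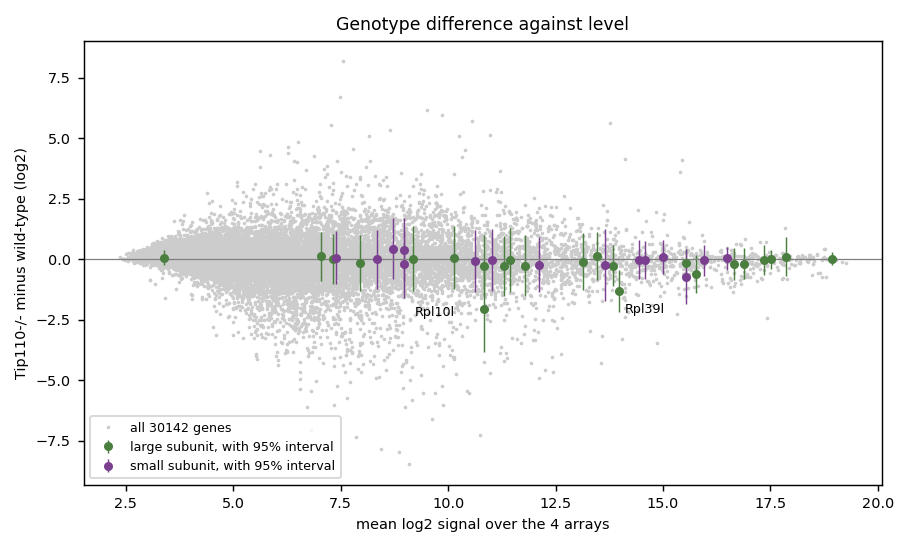
Difference between genotypes on the log2 scale (vertical axis) against the mean log2 signal over the 4 arrays (horizontal axis), with all 30142 genes in grey and the 38 members in colour with limma's 95% intervals. Rpl10l and Rpl39l have intervals that end below 0, at -0.26 and -0.46, and the other 36 intervals include 0.

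In most members the arrays of at least 1 genotype lay as far apart as the genotype means or further. Wild-type replicate 1 was above wild-type replicate 2 in 34 of 38 members, by a median of 0.23. That order held in 14707 of 30142 genes, and in 1609 of the 2405 genes with a mean of at least 10. Tip110-/- replicate 1 was below Tip110-/- replicate 2 in 30 of 38 members, by a median of 0.25. That order held in 12497 of all genes and in 1732 of the 2405. The pool was thus the higher wild-type array and the lower Tip110-/- array in most members. In each comparison this was also the order in most genes with a mean of at least 10. Tip110-/- replicate 1 lay below both wild-type arrays in 26 of 38 members, and Tip110-/- replicate 2 in 9 of 38. The same counts were 6799 and 6780 of all 30142 genes, and 1191 and 771 of the 2405 with a mean of at least 10. The difference between genotypes exceeded both gaps between replicates in 8 of 38 members, 21.1%, against 36.4% of all genes and 27.4% of genes with a mean of at least 10. The array with the least RNA per outgrowth, 55 pg, was the pooled Tip110-/- array, and the one with the most, 248.7 pg, was the pooled wild-type array. The part of RNA amount was not tested.

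Ribosomal protein genes have many near-identical copies in the mouse genome, so probes can read more than 1 of them. Of 80 canonical ribosomal proteins listed, 32 were members, 37 had only rows shared with other symbols, 2 had a row under a symbol the rule does not take (Fau and Rps3a1), and 9 were not analysed here. The 6 members outside the canonical list were Rpl10l, Rpl39l, Rpl3l, Rpl32l, Rpl6l and Rps27l. The chromosome in the row identifier was that of the gene for 99.7% of single-symbol rows on the platform, but for 6 members, Rpl7a, Rpl12, Rpl27, Rpl31, Rpl35 and Rpl41, it was another. For these 6, the values may be those of a copy elsewhere in the genome. That identifiers carry the chromosome is general knowledge of the platform.

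Rows of one gene did not always give one answer. Rpl41 differed by 0.01 in the row used and by 0.61 in the row on its own chromosome, where the arrays were at 12.49 and 12.28 against 12.83 and 13.17. Rpl7a differed by -0.18 in the row used and by 0.35 in the other, where the single Tip110-/- outgrowth stood apart at 12.34 from 11.63, 11.34 and 11.33. Rpl27 differed by 0.10 and 0.27, and Rpl35 by -0.05 and 0.19. In all 4 genes the row on the gene's own chromosome lay higher relative to wild-type than the row used. With those rows, a choice made after the data were seen, the large-subunit median was -0.03. Rps26, whose row used is on its own chromosome, differed by -0.05, and its other rows by 0.0050 and 0.52, the last near background.

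**Figure D4:**
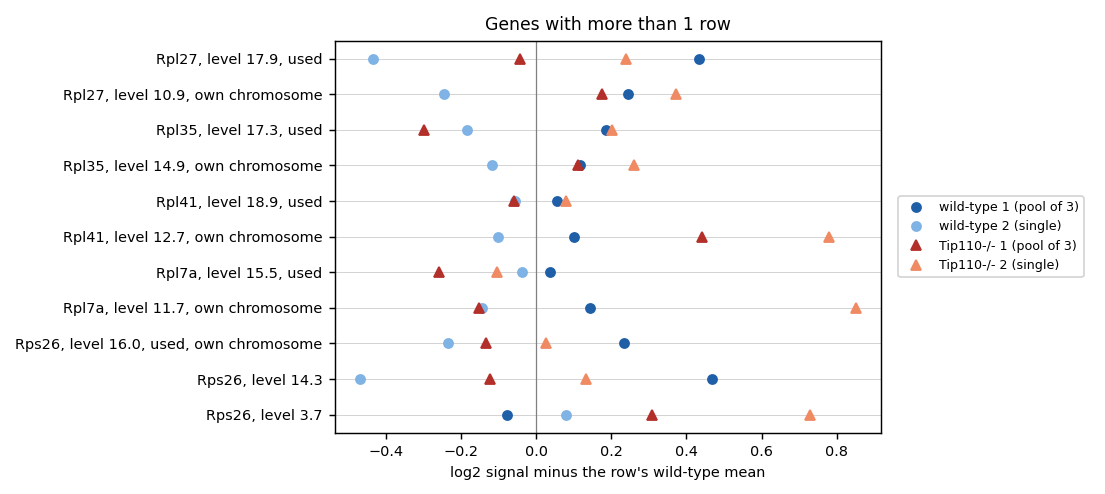
Log2 signal minus the row's wild-type mean (horizontal axis), 1 point per array, for every single-symbol row of the 5 members that had more than 1; labels give the mean level, the row used and whether the row identifier names the gene's own chromosome. In the own-chromosome rows of Rpl41, Rpl7a, Rpl27 and Rpl35 the single Tip110-/- outgrowth, at 13.17, 12.34, 11.13 and 15.11, lies above both wild-type arrays. In that row of Rpl41 the pooled Tip110-/- array, at 12.83, does too.

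The rows shared with other symbols extended the picture to genes without a row of their own. There were 53 such rows, 35 naming a large-subunit and 18 a small-subunit symbol. All 53 differed by less than 2-fold. The median was -0.05 for the large and 0.01 for the small subunit. The large-subunit rows ranged from -0.76 in Rpl36 to 0.73 in the Rpl10 row with 3 symbols, and the small-subunit rows from -0.57 in Rps4l to 0.46 in a row of Rps2. In the large subunit 5 of 35 rows were lower and 8 higher without overlap, and in the small subunit 2 and 3 of 18, where 12.9% of all genes were lower and 39.9% higher, and 26.9% and 14.2% of genes with a mean of at least 10. Each of these rows names more than 1 symbol, so its value belongs to no single gene.

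Genes that act with the ribosome were read from lists. Of 7 elongation factors 0 passed an unadjusted p of 0.05 in limma, with a median of -0.23. Eef1a1, which brings aminoacyl-tRNA to the ribosome, was at 17.87 and 17.92 against 17.91 and 18.13, and Eef2, the translocase, at 15.24 and 15.51 against 14.55 and 15.60. Of 22 measured initiation factors 0 passed, with a median of -0.29 and a range from -1.21 in Eif1ax to 1.01 in Eif3m. Among 7 other genes listed for a terminal oligopyrimidine tract, 1 was lower, the intermediate filament gene Vim at -1.55 (limma unadjusted p = 0.0230, adjusted p = 0.353), and 0 were higher. The nucleolar chaperone Npm1 differed by -0.23 and Fau, which encodes a ubiquitin-like fusion with Rps30, by -0.41.

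Each count of these lists at the unadjusted threshold is of 0 or 1 gene and stands beside 3.67% lower and 8.99% higher of all genes. Among 13 genes that control translation of these mRNAs, 1 was lower and 0 higher. That gene was Tsc2, which restrains mTOR through Rheb, at 8.80 and 8.27 in wild-type outgrowths against 6.75 and 7.51 in Tip110-/- outgrowths (-1.41, limma unadjusted p = 0.0434, adjusted p = 0.386). Mtor and its partner Rptor differed by -1.22 and -1.21 without passing, and Akt1, a kinase upstream of them, by -0.88. Larp1 differed by 0.13 with overlapping groups. Of the 13 genes, 9 were below 0 and 4 above, with a median of -0.32. Rheb, the activator of mTOR, was at 10.78 and 10.33 against 11.00 and 11.58, higher without overlap by 0.74 and also without passing. Of 9 chaperones and importins of ribosomal proteins 0 passed in limma, with a median of -0.51. Heatr3, which accompanies the 5S particle proteins, Tsr2, the chaperone of Rps26, and Pdcd2, which binds Rps2, differed by -1.20, -1.19 and -1.15, while Grwd1 and Ltv1 were higher without overlap, each by 0.54. Of 4 genes of the checkpoint that links free ribosomal proteins to p53, Cdkn1a was higher, at 14.04 and 13.66 against 14.79 and 16.83 (1.96, limma unadjusted p = 0.0390, adjusted p = 0.384). Mdm2 differed by 1.50, at 8.89 and 9.26 against 9.55 and 11.59. In both genes the Tip110-/- arrays lay further apart than the group means. Mdm4 and Nop53 differed by -0.16 and -0.08. Of 8 ribosome-associated and rescue factors 1 was lower, Zfp598, a ubiquitin ligase for collided ribosomes, at -1.78 (limma unadjusted p = 0.0336, adjusted p = 0.373), while Serbp1 differed by -1.40. No list holds a gene that passed the adjusted threshold.

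Compared with other large complexes, the ribosomal proteins had a narrow interquartile range of differences. The interquartile range of the members ran from -0.23 to 0.02, against -0.72 to 0.22 for 75 mitochondrial ribosomal proteins and -0.49 to -0.02 for 38 proteasome subunits. The medians were -0.05, -0.15 and -0.22. At an unadjusted p under 0.05 in limma each group had 2 genes lower and 0 higher. As shares, 5.26%, 2.67% and 5.26% were lower, against 3.67% of all genes and 7.28% of genes with a mean of at least 10. Of the same backgrounds, 8.99% and 2.33% were higher. Without overlap, 21.1% of the cytoplasmic members were lower and 5.26% higher. The shares were 37.3% and 10.7% for the mitochondrial and 31.6% and 2.63% for the proteasome genes, against 12.9% and 39.9% of all genes and 26.9% and 14.2% of genes with a mean of at least 10. The full ranges were -2.04 to 0.43 for the cytoplasmic, -2.20 to 2.39 for the mitochondrial and -2.23 to 0.67 for the proteasome genes. The median half-widths of their intervals were 1.06, 1.31 and 1.27, and the groups were not matched for signal level. The difference between these gene groups was not tested.

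**Figure D5:**
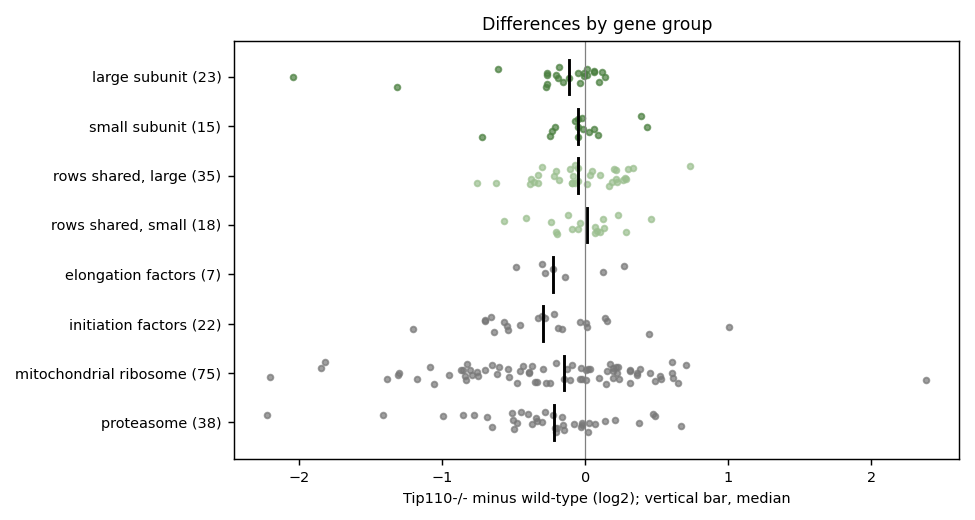
Difference between genotypes on the log2 scale (horizontal axis) for each gene or row of 8 groups, 1 point each with the number in brackets, and the median as a vertical bar. The cytoplasmic ribosomal protein groups, in green, cluster around 0 apart from Rpl10l and Rpl39l, and the mitochondrial ribosomal proteins reach from -2.20 to 2.39.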

How the data were processed

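RNA of 4 samples, 2 wild-type and 2 Tip110-/-, was measured on Affymetrix whole-transcript mouse arrays. The deposited values are log2 signals per row for 72688 rows; the log base was inferred from their range. The values came from the Expression Console and the Transcriptome Analysis Console of Affymetrix, per the submitters' processing notes. Which algorithm normalized them, and on which build, is not given in the sources used here. Per the labels, 144 pg of RNA was labelled per array, while the series' design text gives another amount.

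Rows were named through the platform annotation, with symbols updated by Entrez ID from the GRCm38.p6 gene table. Limma 3.58.1 in R 4.3.3 fitted genotype to all 30142 genes with an intensity trend without filtering. Tests were two-sided, with Benjamini-Hochberg adjustment across the whole gene table and a threshold of 0.05. SE and 95% intervals are limma's moderated ones. The fit was tested on simulated data. Python 3.11.15 with pandas 2.3.3 and matplotlib 3.10.9 made tables and plots.

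Named genes are the 5 most negative and 5 most positive differences per subunit, members at an unadjusted p under 0.05, the 3 highest and 3 lowest rows per subunit, members of listed structural groups, up to 4 genes with the smallest p from each other list, and Sart3. Other members, shared rows and second rows are given for completeness. Members and lists were chosen with earlier results of these data known. Alternatives were other normalizations, priors, weights, a level filter, other row choices, a replicate block and each array left out. The labels call the replicates biological, and the number of arrays limits the precision. Correlated over genes, the pool minus single deviations of the genotypes gave r = -0.09, so the replicate numbers were not taken as pairs.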

Additional observations from a re-analysis of the deposited data

How the results depend on the processing

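With centring of each array on its gene median, the large-subunit median was -0.28 and the small-subunit median -0.21. Leaving out each array gave large-subunit medians from -0.26 to 0.025 and small-subunit medians from -0.14 to 0.10, and from 14 to 32 of 38 members below 0. The latter count was 26 as deposited, 18 after cyclic loess, 21 after quantile normalization and 36 after centring. Quantile normalization gave medians of -0.034 and 0.08. At the unadjusted threshold in limma, 3 large-subunit members were lower after cyclic loess, 2 after quantile normalization and 2 after centring. In these 3 settings 0 were higher, and 0 small-subunit members passed. Of all 30142 genes, 1540 were lower after cyclic loess and 1656 after quantile normalization. In the fits with 1 array left in a group, that array is assumed to vary like the others. The cause of the spread between those fits was not tested, beyond their having fewer arrays. With the replicate block (paired by number), 2 large-subunit members were lower, where 1111 of all genes were lower and 2225 higher. The block cannot change a difference in this balanced design, so the medians necessarily stayed at -0.11 and -0.05. No member passed the adjusted threshold in limma in the settings that kept all 4 arrays, and neither did any other gene tested. The absence of calls is therefore not particular to the members. Rpl39l kept an unadjusted p under 0.05 in limma in each of those settings. Of 38 members, 26 had the opposite sign in at least 1 of the 14 settings tried, and the largest main difference among these was 0.27. Centring moved the split of all genes at an unadjusted p under 0.05 from 2711 higher and 1106 lower to 911 and 1825. With 2 arrays per genotype, precision is limited.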
